A study of Arabidopsis thaliana with 9 samples.

Results

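The transcripts described here are those of the plastid and mitochondrial chromosomes of Arabidopsis thaliana, taken as the locus codes that begin with ATC (plastid) or ATM (mitochondrion) and reach a level of at least 10 in at least 1 group. They number 43, of 17299 genes at that level, with 30 from the plastid and 13 from the mitochondrion. All 30 plastid codes in the table reached the limit, and 13 of 14 mitochondrial ones did. Just inside it were ATMG00670, ATCG00160 and ATMG00640, whose highest levels were 10.6, 11.1 and 11.2, and the code left out, ATMG00570, reached 6.60. The 43 made up a small part of the data, since the columns summed to 11.4 M (D), 12.0 M (R1h) and 12.5 M (WLc).

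Messenger RNA was measured by 3′-end RNA-seq in whole wild-type Columbia-0 seedlings, in 3 groups of 3 libraries. D seedlings spent 2 days in true darkness, which means that a far-red pulse first returned phytochrome, the red light receptor, to its inactive form. R1h seedlings were handled alike but spent 47 h in darkness and then received red light (10 µE) for 1 h. For WLc, continuous white light (100 µE) was on for the whole 2 days, and whether these seedlings also had a far-red pulse is not given. Light is in µE, micromoles of photons a square metre each second. Medium without sucrose and cold treatment of the seeds were common to the dark-grown groups, and the sources name only the cold treatment for WLc.

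Plastids and mitochondria keep small genomes of bacterial descent, whose products work together with many proteins imported from the cytosol. The plastid genome encodes subunits of the photosystems, the cytochrome b6f complex, the plastid ATP synthase, the NDH complex of cyclic electron flow and Rubisco, besides ribosomal proteins and a bacterial-type RNA polymerase. A nuclear phage-type polymerase transcribes it as well. The mitochondrial genome encodes parts of the respiratory chain, of its ATP synthase, of cytochrome c assembly and of its ribosome. Dark-grown seedlings hold etioplasts, plastids without chlorophyll that turn into chloroplasts in light. In plant organelles a poly(A) tail generally marks an RNA for decay and most functional messages lack a lasting tail, so that selection with oligo(dT), as used here, samples only part of the organelle RNA.

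The RefSeq annotation of TAIR10.1 lists 78 distinct protein-coding symbols on the plastid chromosome, 15 of them for photosystem II, 11 for the NDH complex and 21 for the plastid ribosome, and 32 on the mitochondrial one, 9 of them for complex I. It names these genes under other locus tags, and neither it nor the files pair those names with the ATC and ATM codes. Only 4 of the 43 codes are described in it, through notes on related nuclear genes. ATCG00670 is the plastid-encoded ClpP, a subunit of the plastid protease. ATCG00530 is named as the relative of a CemA-like proton extrusion protein, CemA being a protein of the plastid envelope. ATCG00430 is called photosystem II reaction center protein G, an older designation of a protein now assigned to the plastid NDH complex. ATMG01080 is subunit 9 of the mitochondrial F0-ATPase, which forms the proton-conducting ring of the ATP synthase. The other 39 are given by code, without a function, and the grouping by function extends no further than these 4. The data hold 30 plastid and 14 mitochondrial codes, fewer than the 78 and 32 symbols. Why others are absent is not given, and the results below cover only the codes present.

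Levels are in pseudo-counts (counts brought to the same library size), and each is the authors' mean over the 3 libraries of a group. Values per library were not used here, so that a difference cannot be set against the spread between libraries, and there is no SD or p-value for it. A level of 10 rested on about 30 reads. Ratios of levels are given with a 95% interval from the reads, which covers counting error only. Genes are called higher or lower when log2(level + 1) differed by at least 1. On this scale the differences of scarce transcripts come out too small.

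Most of the 30 plastid transcripts were higher in white light than in either dark-grown group. In WLc against D, 18 of the 30 were at least 2-fold higher and none was lower, with a median log2 difference of 1.37 and a range from -0.47 to 4.08. Over all genes tested, 24.6% were called in this comparison, 13.9% higher and 10.7% lower, with a median of 0.022. By counting error alone the ratio lay above 1 for 24 plastid transcripts and below 1 for 3, against 37.5% and 36.2% of all genes. Against R1h, 18 of the 30 were at least 2-fold higher in WLc as well and none was lower, with a median of 1.75, where 12% of all genes were higher and 10% lower. In whole seedlings, more plastids or plastid-bearing cells, more RNA in each and a larger tailed share of that RNA cannot be told apart.

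**Figure D1:**
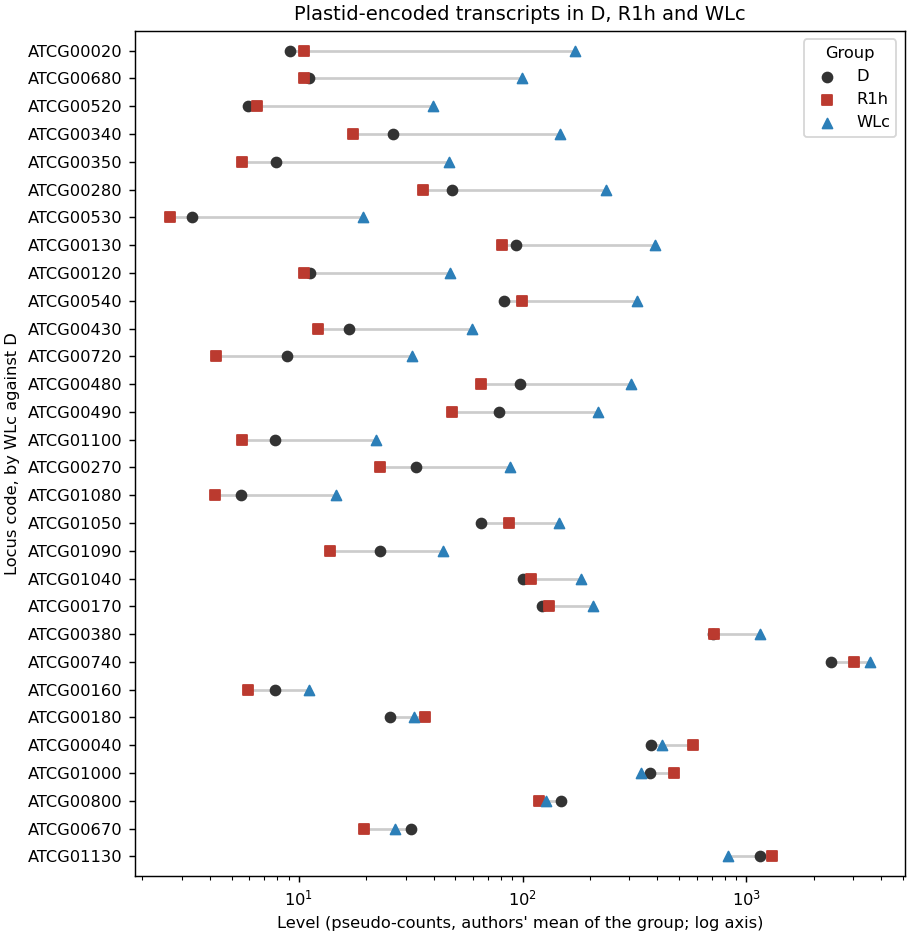
Level of each plastid-encoded transcript (pseudo-counts, log axis) in D (circles), R1h (squares) and WLc (triangles), ordered by the log2 difference between WLc and D. Each point is the authors' mean of 3 libraries; the triangles lie to the right of both other points in 24 of the 30 rows, most clearly at the top, where D and R1h lie close together.

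The largest difference was that of ATCG00020, whose level was 9.17 in D, 10.5 in R1h and 171 in WLc. The ratio of WLc to D was 18.7 (interval 12.6 to 28.0), the highest of the 30. ATCG00680 followed, with 11.1 in D, 10.6 in R1h and 99.8 in WLc, or 8.96 times the D level (6.20 to 13.0). Both were scarce in the dark-grown groups, at about 30 reads each, and stood amid the plastid transcripts in white light.

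A further run of transcripts was about 4 to 7 times as high in WLc as in D. ATCG00520 was at 5.94 in D, 6.51 in R1h and 39.6 in WLc. ATCG00530, the CemA relative, had the lowest dark level of the plastid set, 3.32 in D and 2.65 in R1h, against 19.4 in WLc. Its ratio of 5.84 rested on about 10 reads in D and had a wide interval, 2.95 to 12.7. ATCG00540, whose code comes next, was more abundant, with 82.5 in D, 98.8 in R1h and 323 in WLc. In WLc against D the log2 differences of these 3 consecutive codes were 2.55, 2.24 and 1.96, while their levels differed widely in every group.

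ATCG00340 stood at 26.4 in D, 17.5 in R1h and 146 in WLc. ATCG00350, the code after it, stood at 7.93, 5.57 and 46.7 in the same order. Their log2 differences between WLc and D were 2.43 and 2.42, the closest of any neighbouring codes, although the first was about 3 times as abundant in each group. ATCG00120 and ATCG00130 gave another close match, with 1.98 and 2.06. The level of ATCG00120 was 11.3 in D, 10.5 in R1h and 47.4 in WLc, and that of ATCG00130 was 93.3, 80.7 and 392.

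ATCG00280 reached 236 in WLc from 48.5 in D and 35.7 in R1h, which gave a ratio of 4.88 (4.08 to 5.87). The code before it, ATCG00270, stood at 33.4 in D, 23.1 in R1h and 87.6 in WLc, and its ratio of 2.62 (2.07 to 3.32) had an interval that did not overlap with the former. ATCG00480 was at 97.3, 64.9 and 305 in D, R1h and WLc, and ATCG00490 at 78.5, 48.4 and 217. Both were below their dark level in R1h, with counting intervals of the ratio of 0.556 to 0.804 and 0.499 to 0.761, and were about 3 times as high in WLc as in D.

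ATCG00430, which the reference calls photosystem II reaction center protein G, stood at 16.8 in D, 12.1 in R1h and 59.2 in WLc, 3.53 times its D level (2.55 to 4.86). ATCG00720 stood at 8.89, 4.28 and 32.1. It had the lowest log2 difference of the plastid set after red light, -0.91, on 27 reads in D and 13 in R1h. Its plain ratio of R1h to D was 0.481 (0.227 to 0.961), beyond 2-fold, and as a share of the plastid total its log2 difference was -1.11, which would be called. The remaining transcripts called higher were ATCG01050, ATCG01080 and ATCG01100, at 65.2, 5.53 and 7.83 in D and at 146, 14.6 and 22.1 in WLc. For these 3 the counting interval of the ratio reached below 2, and for the other 15 it lay wholly above 2, as it did for 9.69% of all genes.

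**Figure D2:**
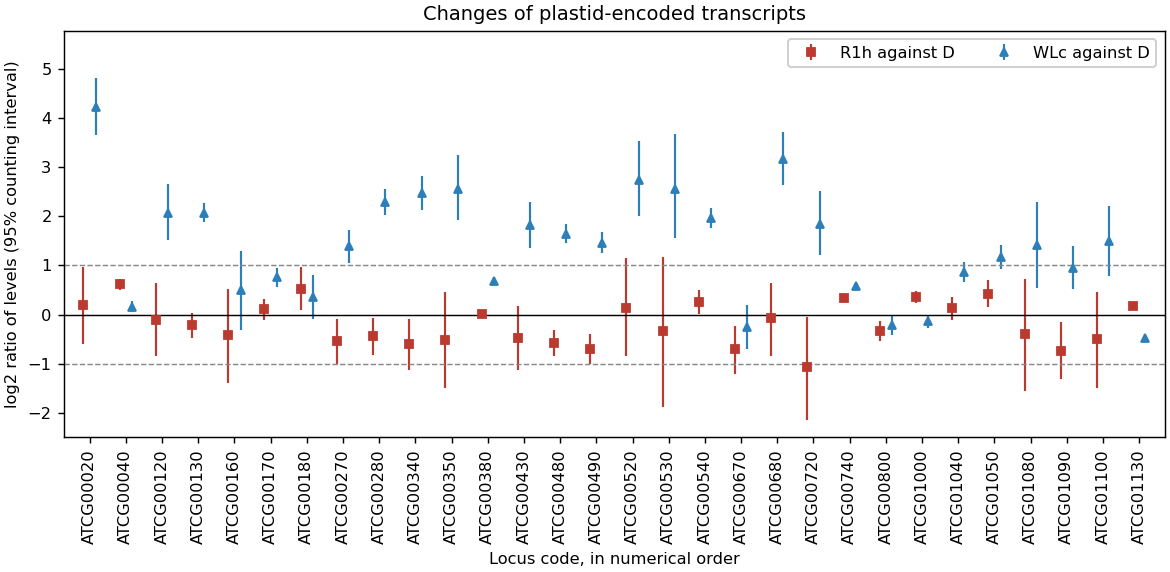
Log2 ratio of levels in R1h against D (squares) and WLc against D (triangles) for the plastid-encoded transcripts in the order of their codes. Bars are 95% counting intervals, dashed lines mark 2-fold, and ratios are of the plain levels, so that low transcripts lie farther from 0 than on the log2(level + 1) scale. Most triangles stand above the upper line, and the squares lie on both sides of 0.

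The other 12 plastid transcripts were not called, with log2 differences between WLc and D from -0.47 to 0.91. They included the most abundant ones. ATCG00740 had the highest level of the plastid set in every group, 2382 in D, 3017 in R1h and 3552 in WLc. It made up 39.3% of the sum over the 30 transcripts in D, 42.8% in R1h and 38.1% in WLc, and its ratio of WLc to D was 1.49 (1.45 to 1.54). ATCG01130 was next in darkness, with 1156 (D) and 1302 (R1h) against 831 in WLc. Its ratio of 0.719 (0.683 to 0.757) was the lowest of the plastid set. ATCG00380 was at 712, 717 and 1147 in D, R1h and WLc, level between the dark-grown groups and 1.61 times as high in white light.

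ATCG00040 and ATCG01000 had their highest level in R1h, as did ATCG01130 and ATCG00180. ATCG00040 stood at 375 in D, 576 in R1h and 420 in WLc, and its log2 difference of 0.62 was the highest of the plastid set after red light. ATCG01000 stood at 370, 475 and 337. The transcript of ClpP, ATCG00670, was at 31.7 in D, 19.5 in R1h and 26.8 in WLc. It was thus lowest after red light, with a ratio to D of 0.615 (0.434 to 0.854), while the interval for WLc against D, 0.618 to 1.14, spanned 1. ATCG00800 was also highest in D, with 148 against 118 and 127.

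ATCG00160, ATCG00170 and ATCG00180 have consecutive codes, and none was called. ATCG00160 was at 7.84 in D, 5.91 in R1h and 11.1 in WLc. For ATCG00170 the same levels were 122, 132 and 207, and for ATCG00180 they were 25.6, 36.5 and 32.7. Of the 3 only ATCG00170 had a counting interval for WLc against D above 1, 1.48 to 1.92. ATCG01040 and ATCG01090 came nearest to the 2-fold limit, with log2 differences of 0.86 and 0.91. The first was at 100.2, 109 and 183 in D, R1h and WLc, and the second at 22.9, 13.8 and 43.9.

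The called and uncalled plastid transcripts differed in level. In D the 18 called higher ran from 3.32 to 97.3 with a median of 14.0, and the 12 others from 7.84 to 2382 with a median of 135. In WLc the medians were 93.7 and 195. Levels of different genes are compared here as reads from the last 500 bases of each transcript, not per length. Since both sets of figures contain the D level that enters the call, they are a description only.

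After 1 h of red light no plastid transcript was called on the log2(level + 1) scale, where 6.35% of all genes were, 3.89% higher and 2.46% lower. Log2 differences from D ran from -0.91 to 0.62 with a median of -0.23, against a median of 0.0032 over all genes. In all 18 of 30 were below 0, beside 49.5% of all genes, and among the 19 with a level of at least 50 the median was 0.0096. As shares of the plastid total, 24 of 30 were below D with a median of -0.42. With ATCG00740 left out of that total, 21 of 29 were, with a median of -0.35. The counting interval of the ratio lay above 1 for 7 transcripts, below 1 for 9 and spanned 1 for 14. It lay wholly beyond 2-fold for none, as against 2.47% of all genes on the higher side and 1.35% on the lower. Among all genes it lay above 1 for 28.1% and below 1 for 25%. The 5 most abundant plastid transcripts, ATCG00740, ATCG01130, ATCG00380, ATCG00040 and ATCG01000, were all at or above their D level in R1h. Among the 18 that were higher in WLc than in D, the median log2 difference between R1h and D was -0.37, and among the other 12 it was 0.12. R1h and WLc are compared with the same D libraries, so that these 2 sets of differences are not independent.

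Locus codes are numbered along the chromosome, and 12 pairs of plastid transcripts have codes 1 step of 10 apart. In WLc against D the members of such a pair differed by a median of 0.30 on the log2 scale, against 1.05 over all 435 pairs of plastid transcripts. Plastid genes next to each other are often transcribed together, so that pairs are not separate measurements. The widest gap was that of ATCG00670 and ATCG00680, of which the first was lower than in D by 0.24 and the second higher by 3.05. ATCG00270 and ATCG00280 came next and differed by 0.90. In R1h against D the medians were 0.32 for neighbours and 0.43 for all pairs.

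In all, the 30 plastid transcripts summed to 6067 pseudo-counts in D, 7051 in R1h and 9323 in WLc. This was 0.0530%, 0.0588% and 0.0745% of the column. Without ATCG00740 and ATCG01130 the sums were 2529, 2731 and 4939, so that the sum of the other 28 was nearly the same in D and R1h and almost doubled in WLc.

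Of the 13 mitochondrial transcripts, 12 had a lower level in WLc than in D, some only slightly, beside 48.7% of all genes. ATMG00580 had a higher one. In WLc against D, 6 of the 13 were at least 2-fold lower and none was higher, where 10.7% of all genes were lower. The median log2 difference was -0.82 and the range was -2.01 to 0.21. The shift was smaller on another scale. As shares of the mitochondrial total, 9 of 13 were below D with a median of -0.51. With ATMG00020 left out of that total, 7 of 12 were, with a median of -0.28. The counting interval of the ratio lay below 1 for 9 transcripts and above 1 for 1, against 36.2% and 37.5% of all genes. Against R1h, 5 of the 13 were lower in WLc, with a median of -0.51, beside 10% of all genes.

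**Figure D3:**
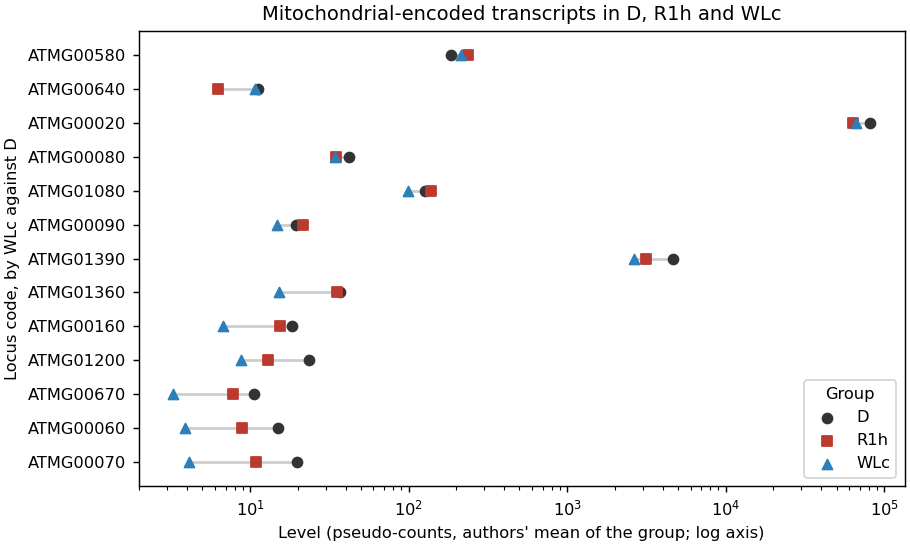
Level of each mitochondrial transcript (pseudo-counts, log axis) in D (circles), R1h (squares) and WLc (triangles), ordered by the log2 difference between WLc and D. Each point is the authors' mean of 3 libraries; ATMG00020 and ATMG01390 stand far to the right of the other 11, and WLc is the lowest of the 3 groups in the rows at the bottom.

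The 6 that were lower in WLc were all scarce, at 10.6 to 37.0 in D and 3.28 to 15.2 in WLc. ATMG00070 had the largest difference, with 19.7 in D, 11.0 in R1h and 4.13 in WLc. Its ratio of WLc to D was 0.210 (0.109 to 0.400), the only one of the 6 whose interval lay wholly beyond 2-fold, as it did for 7.95% of all genes, and it rested on 59 and 13 reads. The neighbouring ATMG00060 was at 14.9, 8.84 and 3.90. ATMG01200 was at 23.6, 13.1 and 8.78, with a ratio of R1h to D of 0.553 (0.371 to 0.837), an interval below 1 as in the former pair, though none of the 3 was called in R1h.

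In the other 3 the level in R1h was nearer to D. ATMG01360 was at 37.0 in D, 35.2 in R1h and 15.2 in WLc, so that its level after red light differed little from darkness. ATMG00160 was at 18.5, 15.5 and 6.76. ATMG00670 was at 10.6, 7.81 and 3.28, the lowest level of any member in WLc together with ATMG00060 and ATMG00070. All 6 stood in the order D, R1h, WLc from high to low. This order is a description only, since the 6 were chosen for a low level in WLc against D. R1h is compared with the same D libraries, and ATMG00060 and ATMG00670 reached the level limit in D only. For ATMG00160, ATMG00670 and ATMG01360 the counting interval of R1h to D spanned 1.

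Nearly all mitochondrial reads came from 2 codes. The reference describes neither, so whether these reads came from messenger RNA is not known here. ATMG00020 stood at 81000 in D, 63173 in R1h and 66726 in WLc, and made up 94.0%, 94.5% and 95.6% of the mitochondrial sum. ATMG01390 stood at 4681, 3158 and 2655. Together they held 99.2% to 99.4% of the sum in each group. Both were higher in D than in either light-treated group, with ratios of WLc to D of 0.824 (0.819 to 0.829) and 0.567 (0.552 to 0.583). Neither was called. The intervals are narrow because of the many reads and say nothing of the spread between libraries.

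The transcript of ATP synthase subunit 9, ATMG01080, was at 126 in D, 139 in R1h and 98.4 in WLc. Its ratio of WLc to D was 0.780 (0.670 to 0.912). ATMG00580 was the only mitochondrial transcript above D in both light-treated groups, at 186 in D, 236 in R1h and 215 in WLc, and the intervals of both ratios lay above 1, 1.14 to 1.42 and 1.03 to 1.30. ATMG00080 was at 42.3, 35.0 and 34.5, ATMG00090 at 19.5, 21.6 and 14.8, and ATMG00640 at 11.2, 6.32 and 10.7. For these 3 the counting intervals of both ratios spanned 1.

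**Figure D4:**
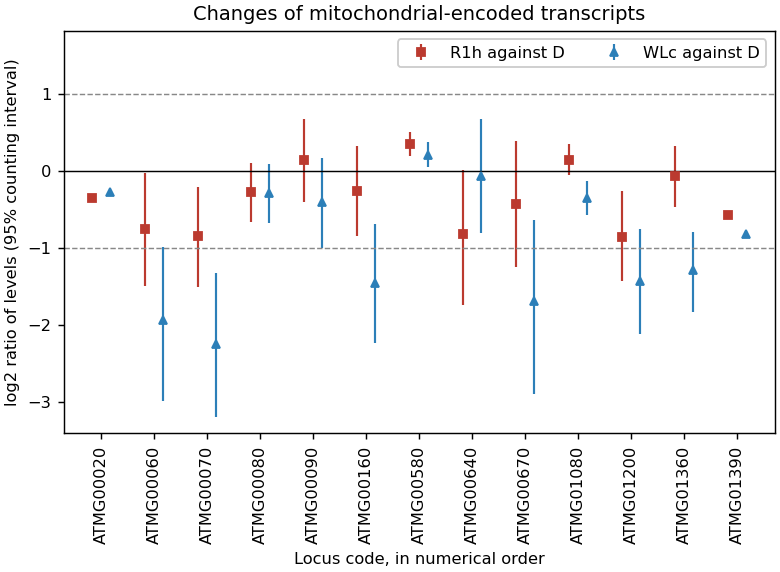
Log2 ratio of levels in R1h against D (squares) and WLc against D (triangles) for the mitochondrial transcripts in the order of their codes. Bars are 95% counting intervals, hidden by the symbol where reads were many, and dashed lines mark 2-fold. The triangles of 6 transcripts lie below the lower line, and that of ATMG00640 lies closest to 0.

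After 1 h of red light no mitochondrial transcript was called either, against 6.35% of all genes, and 10 of 13 were below their D level, as were 49.5% of all genes. The log2 differences ran from -0.81 to 0.35 with a median of -0.36. This direction did not hold on another scale: as shares of the mitochondrial total, 6 of 13 were below D with a median of 0.0078, and without ATMG00020 5 of 12 were, with a median of 0.13. By counting error the ratio lay below 1 for 5 (ATMG00020, ATMG00060, ATMG00070, ATMG01200 and ATMG01390), above 1 for ATMG00580, and spanned 1 for 7. The shares of all genes were 25% below and 28.1% above. In the order of the 3 groups, 8 transcripts ran D, R1h, WLc from high to low, as against 0 of the 30 plastid transcripts and 22% of all genes. Of these 8, ATMG00060 and ATMG00670 reached the level limit in D only, and both comparisons share the D libraries.

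The mitochondrial members summed to 86190 pseudo-counts in D, 66860 in R1h and 69796 in WLc, or 0.753%, 0.558% and 0.558% of the column. Without ATMG00020 and ATMG01390 the other 11 summed to 509, 530 and 415, so that the lower sum in R1h rested on these 2 codes. The mitochondrial sum exceeded the plastid sum in every group, which rested on ATMG00020. Without that code the other 12 summed to 5190, 3687 and 3070 in D, R1h and WLc, below the plastid 6067, 7051 and 9323.

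Nuclear genes for partner proteins of the organelles were read from the same columns. Over all genes, 13.9% were called higher and 10.7% lower in WLc against D, and 6.35% were called in R1h against D. All 12 nuclear genes listed for subunits of the photosystems, the cytochrome complex and the plastid ATP synthase were called higher in WLc than in D, with a median of 2.85, and 1 of 12 was called in R1h. Among them PSAL, a photosystem I subunit, was at 15630 in D, 19160 in R1h and 107529 in WLc, and PSAF, another, was at 7398, 10047 and 72030. Of 6 nuclear genes for the plastid NDH complex, 5 were called higher in WLc, with a median of 1.60. The Rubisco small subunit genes gave 3 of 4, with a median of 1.71. In R1h against D 1 of these 4 was called higher, RBCS1B, at 866 in D, 3022 in R1h and 14848 in WLc. None of the 6 NDH genes was called in R1h. None of 9 nuclear genes for plastid ribosomal proteins was called, and their median was 0.12.

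The nuclear relatives by which the reference describes 3 of the plastid codes did not pass the 2-fold limit in either comparison. CLP2 (AT1G12410), a nuclear subunit of the Clp protease family, was at 501 in D, 523 in R1h and 518 in WLc. AT4G31040, the CemA-like gene, was at 143, 156 and 179, where ATCG00530 differed 5.84-fold between WLc and D. AT5G11770, a subunit of mitochondrial complex I related to ATCG00430, was at 2035, 1991 and 1299, and thus lower in WLc, where ATCG00430 was higher.

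On the mitochondrial side, none of 16 nuclear genes of the respiratory chain was called in WLc against D, where 24.6% of all genes were. The median of the 16 was -0.32, with a range from -0.72 to 0.35. The most abundant, AT5G08690 for a beta subunit of the ATP synthase, was at 3773 in D, 5183 in R1h and 2998 in WLc. In R1h against D 1 of the 16 was called, where 6.35% of all genes were. It was CYTC-2, a gene for cytochrome c, at 158 in D and 617 in R1h. Of 10 nuclear genes for organelle RNA polymerases and RNA processing, 5 were called higher in WLc and none lower. The shares of all genes were 13.9% and 10.7%. RPOTm, the mitochondrial phage-type polymerase, was at 52.4 in D, 43.9 in R1h and 123 in WLc. RPOTp, a plastid one, was at 33.0, 43.0 and 37.3. RPOTmp (AT5G15700), another organelle RNA polymerase of the list, was at 15.5, 19.3 and 40.5. It was called higher in WLc, with a log2 difference from D of 1.33. The most abundant of the list were CSP41B (CRB) and CSP41A, related plastid RNA-binding proteins, and the ribonuclease RNJ (AT5G63420). CSP41B was at 2142 in D, 3181 in R1h and 18492 in WLc, and CSP41A at 249, 308 and 2194. RNJ was at 395, 498 and 222 and was not called, with a log2 difference of -0.83 between WLc and D.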

How the data were processed

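The authors aligned single-end reads of 50 cycles with Bowtie to TAIR9 representative transcripts without mismatches and counted unique reads in the 3′-most 500 bases, coding strand only. No version of the authors' Bowtie or edgeR is given in the sources used here. Reads over edited sites, or shared with a nuclear copy of organelle DNA, would not be counted. How far this changed levels was not tested. The deposited values are a signal, pseudo-counts that the authors made with edgeR, with 1 column per group. Groups were taken from the sample titles.

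Whether the 3 libraries of a group came from separate cultures is not stated. With group means only, no replicate test was possible. The approximate read number was the level divided by the worth of 1 read (0.332 in D, 0.330 in R1h, 0.326 in WLc), and ratios have exact conditional (Clopper-Pearson) 95% intervals (scipy 1.17.1), tested on simulated data. The simulated counts held counting error only and left out genes with few reads in D. They thus do not test the spread between libraries or the scarcest members. The pseudocount was 1. Alternatives were other pseudocounts, scalings, level limits and a call on the interval.

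The members and the gene lists were chosen with earlier results of these data known. Named by rule were, in each genome, the 5 members of highest mean level and the called members (the 15 with the largest change where there were more), and up to 3 nuclear genes per list by level. The other members, and CYTC-2, RPOTm, RPOTp and RPOTmp, were named after their values were seen, to account for every member or to show a called or defining gene. Parts of the rule that need gene symbols could not be applied.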

Additional observations from a re-analysis of the deposited data

How the results depend on the processing

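The number of plastid transcripts called higher in WLc than in D, 18, was between 12 and 18 under the other alternatives and 11 when a level of at least 50 was required, which left 19 plastid transcripts. That limit left 4 mitochondrial transcripts and 0 called lower, in place of 6, and over all genes it left 281 called lower in R1h. With the call made only where the full counting interval passed 2-fold, 1 mitochondrial transcript was lower in WLc, and 428 genes were higher and 233 lower in R1h. Scaling each column to the plastid total, which was highest in WLc, left 13 plastid transcripts higher in WLc and called 1 lower (ATCG01130, -1.09), and called 1 lower in R1h (ATCG00720, -1.11). With ATCG00740 left out of that total, a setting chosen after seeing the data, 12 were higher in WLc, 1 was lower and 1 was lower in R1h. With ATMG00020 left out of the mitochondrial total, likewise chosen after seeing the data, 2 mitochondrial transcripts were lower in WLc (ATMG00060 and ATMG00070), and the median in R1h turned from -0.36 to 0.13. Scaling to the mitochondrial total with ATMG00020 in it brought that median to 0.0078. Scaling to the column total moved the median log2 difference of all genes in WLc from 0.022 to -0.10 and split the calls over all genes into 2103 higher and 2196 lower, in place of 2412 and 1846, while the plastid and mitochondrial calls stayed at 18 and 6. No called member changed sign under any alternative. Quantile normalization called ATMG00020 lower in WLc, at -1.27. With a level limit of 50 the plastid median in R1h was 0.0096, and scaled to the plastid total it was -0.42.

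No paired analysis was possible because the columns carry no library values, and leaving out a library in turn was not run for the same reason. Depth limits the scarce transcripts, since levels under 10 rest on fewer than about 30 reads, and the differences of 5 of the 6 mitochondrial transcripts called lower rest on ratios whose counting interval reaches within 2-fold.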
